A study of Xenopus laevis with 16 samples.

Results

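Animal caps of Xenopus laevis (African clawed frog) embryos that received both foxD5 mRNA and Noggin protein were compared with caps that received neither, on 4 arrays a group, 8 of the 16 arrays in the series. The 4 foxD5-noggin samples came from embryos injected at the 2-cell stage with foxD5 mRNA at 100 pg in each cell. Their caps were cut at stages 8 to 9, cultured in Noggin at 200 ng/ml and collected between stage 11.5 and stage 12.5 (stage 12.5 for the last sample), with 121, 136, 129 and 100 caps in the pools. The 4 control samples were pools of 45, 169, 124 and 142 uninjected caps without Noggin, the siblings of caps injected with foxD5 and cultured without Noggin. No group was injected with another mRNA, the controls carry no stage label, and the control caps were not siblings of the foxD5-noggin caps, so that treatment and clutch cannot be told apart. Without a stage for the controls, treatment and stage cannot be told apart either. The other 8 arrays, foxD5 alone and Noggin alone on 4 arrays each, served to estimate the spread and to set the single treatments beside the joint one. Their doses were the same. Caps with foxD5 alone were collected between stage 11.5 and stage 13.0, and those with Noggin alone between stage 11.5 and stage 12.5. The source field of every sample names a whole animal and cochlea, whereas the sample descriptions speak of caps, and the descriptions were followed here. All 15491 probe sets other than the manufacturer's controls were tested, and 7531 gene symbols were represented among them. In gene symbols, .L and .S mark the copies on the long and the short chromosome of a pair, a legacy of the genome doubling in this frog.

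Animal cap cells are the prospective ectoderm of the blastula, and in culture they become epidermis because BMP ligands made by the cap cells signal back to them. Noggin binds BMP ligands outside the cell and keeps them from their receptors, which turns caps towards neural tissue. foxD5, now named foxd4l1, encodes a forkhead repressor made in the young neural plate, where it is known in Xenopus to hold cells in an immature neural state. The comparison asks how far the joint treatment moves caps from the epidermal default.

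Forkhead and AP-2 transcription factor genes of the epidermis and the BMP ligand gene bmp7.2.L fell in foxD5-noggin caps, while foxb1.S of the neural plate, the ligand gene fgf8.L, the T-box gene vegt.L and the Wnt receptor gene ror2.L rose. In all, 66 probe sets were higher and 26 lower in foxD5-noggin caps than in untreated caps at an adjusted p under 0.05 (limma on log2 signal, Benjamini-Hochberg adjustment over all probe sets), which is 0.594% of those tested, 0.426% higher and 0.168% lower. Of the 92, 79 changed more than 2-fold, 56 of them upwards and 23 downwards. A total of 13 passed 4-fold, 7 of them higher and 6 lower. Changes ranged between 2.58 and -2.79 on the log2 scale, and the smallest among the 92 was 0.80 in size. Over all probe sets the median log2 change was -0.01. On the normalised log2 scale the foxD5-noggin arrays and the control arrays did not overlap for 91 of the 92, mmp14.L being the exception; among all probe sets, 3.63% did not overlap in the higher direction and 3.03% in the lower. A single gene symbol was annotated to 60 of the 92 probe sets, several to 2 and none to 30. With signals as deposited, without quantile normalisation, 33 were higher and 21 lower. The number past the threshold depended on single arrays: it was 33 without control 4, 43 without foxD5-noggin 1, 46 without foxD5-noggin 2, 50 without control 2 and 55 without foxD5-noggin 4. Every one of the 92 kept its sign in each of these fits. The 92 were picked for their large changes and these fits share most arrays, so the kept signs say little about stability. In bulk samples, fewer cells of a type and less RNA per cell cannot be told apart. The labels do not say that the 4 samples of a group came from separate clutches, so a p-value here measures only the spread between these samples, which may be technical.

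**Figure D1:**
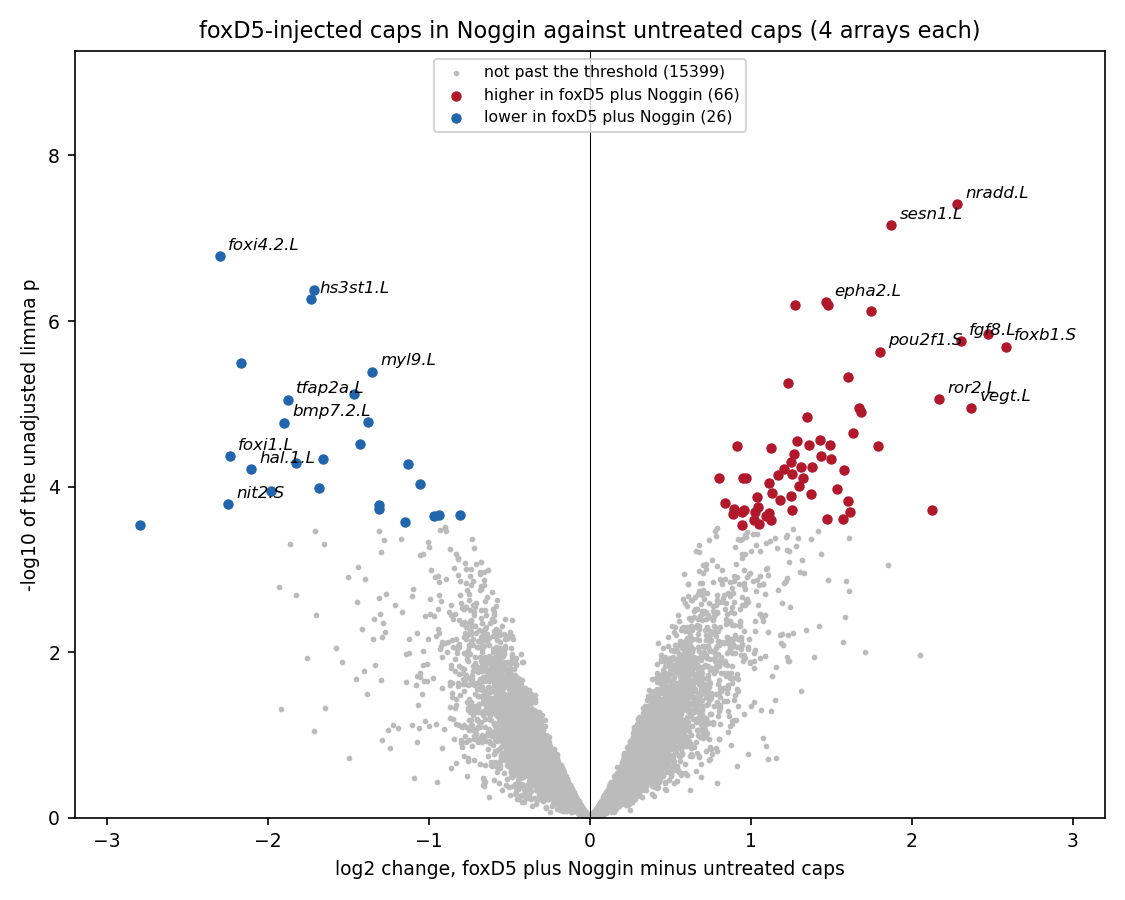
Log2 change in foxD5-noggin caps against untreated caps (x axis) and -log10 of the unadjusted limma p (y axis) for 15491 probe sets, with 66 higher in red and 26 lower in blue. The highest points are nradd.L and sesn1.L on the right and foxi4.2.L on the left.

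Measured array by array over all probe sets, the 2 groups were hardly farther from each other than arrays of 1 group were among themselves. The root mean square log2 difference between a foxD5-noggin array and a control array had a median of 0.577 over 16 pairs, between 0.486 and 0.756. Pairs within foxD5-noggin had a median of 0.539 and pairs within the controls one of 0.565, over 6 pairs each. The root mean square of the difference between group means was 0.356 for the joint treatment, 0.276 for foxD5 alone and 0.299 for Noggin alone, each against the same 4 control arrays. These values include the spread between arrays and were not tested. That spread is smaller for foxD5 alone, compared between siblings, so the values do not rank the single treatments by size.

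**Figure D2:**
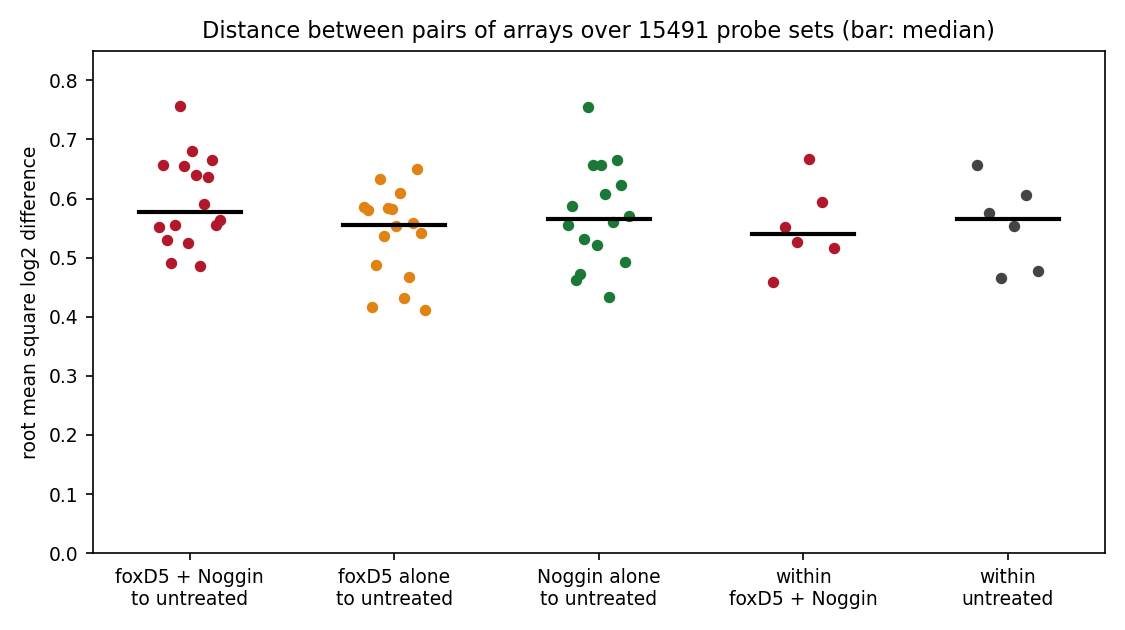
Root mean square log2 difference (y axis) for each pair of arrays, by kind of pair (x axis), with a bar at the median. The 16 pairs of foxD5-noggin and untreated arrays have a median of 0.577, against medians of 0.539 and 0.565 within the groups.

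The epidermal transcription factor genes held the deepest fall among the named genes. foxi4.2.L, a forkhead gene of the ionocyte and non-neural ectoderm programme, had signals of 215, 187, 129 and 118 in foxD5-noggin caps and 953, 842, 541 and 1049 in untreated caps. Its log2 change was -2.30 ± 0.28 (SE, n = 4 arrays a group, limma adjusted p = 0.000841), and the highest foxD5-noggin array lay far below the lowest control. Another probe set of the gene, with mean signals of 16.1 and 14.6, gave 0.26 (adjusted p = 0.804). foxi1.L, the forkhead gene that specifies ionocytes, had signals of 13.8, 22.2, 0.92 and 2.5 in foxD5-noggin caps and 123, 136, 56.2 and 139 in untreated caps, a change of -2.24 ± 0.42 (SE, adjusted p = 0.0176, limma). In foxD5-noggin samples 3 and 4 its signal was close to the lowest values on the array. It passed in 5 of the 8 fits that left out 1 array, with adjusted p-values of 0.0576 without control 2, 0.0661 without control 4 and 0.0512 without foxD5-noggin 4. tfap2a.L encodes an AP-2 factor needed for epidermal and neural crest genes and had signals of 212, 263, 156 and 181 in foxD5-noggin caps, against 982, 608, 552 and 1003 in untreated caps. Its change was -1.88 ± 0.31 (SE, adjusted p = 0.0069, limma).

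Of the 25 epidermal transcription factor genes measured, those 3 fell, none rose and 22 did not pass, beside 0.168% of all probe sets that fell. Their median log2 change was -0.78, beside -0.03 over all genes taken at 1 probe set per symbol, and 23 of the 25 values were negative. The list was chosen with earlier results of these data known, so its lean is not independent support. Groups did not overlap, foxD5-noggin caps being lower, for 6 of the 25, beside 3.03% of all probe sets. Below the threshold, dlx6.S, a distal-less homeobox gene of the ectoderm, averaged 51.3 ± 18.6 in foxD5-noggin caps and 157 ± 66.4 in untreated caps (-1.21 ± 0.35 log2, adjusted p = 0.144, limma). msx1.L, a homeobox gene that BMP signalling switches on, averaged 22.7 ± 6.97 and 87.8 ± 28.5 in the same order (-1.27 ± 0.35, adjusted p = 0.125, limma). klf2.S, a Krüppel-like factor gene, averaged 111 ± 31.9 in foxD5-noggin caps and 204 ± 37 in untreated caps (-0.81 ± 0.25, adjusted p = 0.171). At the other end of the list, tp63.L, which encodes the p63 factor of basal epidermis, had an adjusted p of 0.996 and zfp36l1.S gave 0.54 on the log2 scale. The mean log2 signal of the list was 6.60, 7.09, 6.05 and 6.39 on the foxD5-noggin arrays and 7.92, 6.94, 6.86 and 7.59 on the control arrays. Controls 1 and 4 were the higher controls, and foxD5-noggin 2 lay above controls 2 and 3, so that the list as a whole overlapped between the groups.

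Keratin genes, which encode the filament proteins of the epidermis, did not follow at the threshold. None of the 23 measured passed in either direction, 17 of their log2 changes were negative and the median was -0.25. krt12.5.S had the lowest value, -1.72 ± 0.95 (SE, adjusted p = 0.521, limma), and krt17.S the highest, 0.52 ± 0.25. krt7.L had signals of 475, 1482, 225 and 459 in foxD5-noggin caps and 3178, 512, 615 and 2069 in untreated caps. Controls 1 and 4 again stood above controls 2 and 3, and foxD5-noggin 2 above its own group, by several-fold in both cases. The summed signal of the 23 keratins lay between 6777 and 11707 on foxD5-noggin arrays and between 6966 and 19511 on control arrays, so the keratin message of ectoderm was present in both groups. The list of multiciliated, ionocyte, goblet and small secretory cell genes gave no call in 23 (20 negative, median -0.16). It does not hold the ionocyte genes foxi1.L and foxi4.2.L, which fell and were counted among the epidermal transcription factors. The 35 genes of epithelial adhesion and junctions gave 1 rise, beside 0.426% of all probe sets that rose. It was gjb2.L, a connexin gene of gap junctions, with means of 110 ± 50.6 in foxD5-noggin caps and 39.2 ± 14.1 in untreated caps (1.26 ± 0.25, adjusted p = 0.0223, limma). The gene passed in 4 of the 8 leave-one-out fits, the highest adjusted p being 0.0739. cdh1.S, the E-cadherin gene of epithelia, gave -0.74 ± 0.35 and cdh3.S, a C-cadherin gene of the early embryo, 0.77 ± 0.20, neither past the threshold.

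In the BMP pathway 1 gene of 55 fell and none rose. It was the ligand gene bmp7.2.L, with signals of 240, 385, 160 and 145 in foxD5-noggin caps and 1157, 538, 687 and 1042 in untreated caps. The change was -1.90 ± 0.33 on the log2 scale (SE, adjusted p = 0.0101, limma), with every foxD5-noggin array below every control. The median of the pathway was -0.05, and among all probe sets 0.168% fell. The secreted antagonist sizzled, a feedback product of BMP signalling, came next: szl.S had 18.5, 40.8, 15.3 and 19.9 in foxD5-noggin caps and 156, 114, 49 and 169 in untreated caps (-1.65 ± 0.39, adjusted p = 0.0612, limma). szl.L, its homeolog, had 14.5, 60.2, 10.3 and 0.741 and 139, 105, 64.9 and 200 in the same order (-1.93 ± 0.52, adjusted p = 0.112), so that neither copy passed at its own probe set. A probe set annotated to both copies, and so counted in no list, had 89.7, 244, 28.6 and 21.1 in foxD5-noggin caps and 734, 381, 347 and 927 in untreated caps. It changed by -2.79 ± 0.63 (adjusted p = 0.0486, limma), the deepest fall past the threshold in the comparison, and passed in none of the 8 leave-one-out fits (adjusted p up to 0.133). twsg1.L, a secreted BMP-binding protein gene, gave -1.40 ± 0.37 and the ligand gene bmp4.S -1.3 ± 0.52, neither past the threshold. On the positive side, ventx1.1.L, a ventral homeobox gene activated by BMP, gave 0.97 ± 0.28 (adjusted p = 0.144) and the receptor gene bmpr1a.L 0.67 ± 0.21 (adjusted p = 0.186), also below the threshold. Another probe set of ventx1.1.L gave -0.24.

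The next named falls were of genes outside the epidermal and BMP lists. hal.1.L, the histidine ammonia-lyase gene whose product starts histidine breakdown, had signals of 270, 360, 55.5 and 158 in foxD5-noggin caps and 1042, 558, 636 and 1001 in untreated caps (-2.10 ± 0.41 log2, adjusted p = 0.0203, limma). The foxD5-noggin arrays spread several-fold among themselves, and the call was lost in leave-one-out fits at 0.0709 without control 4, 0.0574 without foxD5-noggin 3 and 0.0524 without foxD5-noggin 4. hs3st1.L, a sulfotransferase gene for heparan sulfate chains, had 31.3, 40, 41.1 and 26.7 in foxD5-noggin caps and 227, 150, 137 and 135 in untreated caps (-1.73 ± 0.23, adjusted p = 0.00123). It passed in all 8 leave-one-out fits, as did myl9.L, a myosin regulatory light chain gene, with 59, 51.7, 57.4 and 55.1 in foxD5-noggin caps and 200, 187, 137 and 177 in untreated caps (-1.35 ± 0.21, adjusted p = 0.00423). Both were tightly grouped in foxD5-noggin caps. zbtb33.S, which encodes the transcriptional repressor Kaiso, averaged 185 ± 52.3 in foxD5-noggin caps and 722 ± 274 in untreated caps (-1.82 ± 0.35, adjusted p = 0.0189, limma), and 2 other probe sets of the gene gave -0.03 and -0.05.

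eef1a1.S, an elongation factor gene, averaged 97.7 ± 30 in foxD5-noggin caps and 358 ± 110 in untreated caps (-1.68 ± 0.34, adjusted p = 0.0279, limma), but a much brighter probe set of the gene, averaging 4579 and 4632 in the same order, gave -0.07. nit2.S, an omega-amidase gene, averaged 59.1 ± 30.6 in foxD5-noggin caps and 329 ± 90 in untreated caps (-2.25 ± 0.48, adjusted p = 0.0369). cenpv.L, a centromere protein gene, gave -1.43 ± 0.26, paics.1.L, of purine synthesis, -0.97 ± 0.21 and tmem248.L, a membrane protein gene, -1.06 ± 0.21, with adjusted p-values of 0.0147, 0.0417 and 0.026 (limma). These calls were not steady against the loss of an array: out of 8 leave-one-out fits, zbtb33.S passed in 5, cenpv.L in 6, eef1a1.S, paics.1.L and tmem248.L in 2 and nit2.S in 1, the highest adjusted p being 0.115 for paics.1.L. Outside the 14 largest falls, rcn2.L, a calcium-binding protein gene of the endoplasmic reticulum, gave -0.94 ± 0.20 and passed in none of the 8, and cavin2.S, a caveolar protein gene, gave -0.80 ± 0.18 and passed in 1. A total of 8 probe sets without a gene name also fell, and the one that fell most averaged 203 ± 122 in foxD5-noggin caps and 821 ± 86.1 in untreated caps (-2.17 ± 0.33, adjusted p = 0.00359, limma), the next changing by -1.98 ± 0.41. The one that fell most shares its name stem with those at -1.71, -1.47 and -1.38. They may measure the same transcript and so may not be separate falls.

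Among the rises, foxb1.S was the largest. This forkhead gene of the neural plate had signals of 124, 158, 91.3 and 177 in foxD5-noggin caps and 3.73, 26.4, 18 and 1.78 in untreated caps, where 2 of the 4 arrays were near the bottom of the scale. Its log2 change was 2.58 ± 0.38 (SE, n = 4 arrays a group, adjusted p = 0.00263, limma), understated by the pseudocount of 16 because the control signals were low. It was the only call among 62 neural plate transcription factor genes, whose median change was 0.03, beside 0.426% of all probe sets that rose.

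vegt.L and fgf8.L rose beside it. vegt.L encodes a T-box factor that starts endoderm formation and is later made in mesoderm, and had signals of 776, 569, 1182 and 1324 in foxD5-noggin caps and 101, 267, 243 and 92.8 in untreated caps (2.37 ± 0.40, adjusted p = 0.00798, limma). Its homeolog vegt.S averaged 20.3 ± 9.39 in foxD5-noggin caps and 9.21 ± 6.34 in untreated caps and did not pass (0.60 ± 0.27). fgf8.L, an FGF ligand gene with roles in neural induction, posterior patterning and mesoderm, had 539, 507, 604 and 633 in foxD5-noggin caps and 61.7, 169, 144 and 68.8 in untreated caps (2.30 ± 0.33, adjusted p = 0.00245). In all 3 genes the lowest foxD5-noggin array was more than 2-fold above the highest control. All 3 passed in all 8 leave-one-out fits. Of the other fgf8.L probe sets, both dimmer, 1 gave 0.37 and 1 gave 0.71, neither past the threshold.

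The FGF pathway and immediate early genes gave 3 rises and 1 fall among 32 genes measured, with a median of 0.05, beside 0.426% higher and 0.168% lower among all probe sets. Apart from fgf8.L, the rises were dusp1.S, a phosphatase gene that switches off MAP kinases, and etv4.L, an ETS factor gene induced by FGF. dusp1.S had signals of 157, 107, 160 and 103 in foxD5-noggin caps and 36.3, 64.3, 64.7 and 24.5 in untreated caps (1.35 ± 0.23, adjusted p = 0.00931, limma), while dusp1.L, the brighter homeolog, averaged 1101 in foxD5-noggin caps and 1166 in untreated caps (-0.08). etv4.L had 1545, 1849, 1017 and 1109 in foxD5-noggin caps and 632, 602, 722 and 709 in untreated caps (0.95 ± 0.19, adjusted p = 0.0228), and passed in 3 of the 8 leave-one-out fits. The fall was that of a receptor gene, fgfr4.S, with 35.8, 47.1, 31.9 and 60.5 in foxD5-noggin caps and 197, 129, 98.3 and 154 in untreated caps (-1.31 ± 0.28, adjusted p = 0.037); it passed in 1 of the 8 fits, with an adjusted p of up to 0.105. Its homeolog fgfr4.L had 125, 112, 115 and 104 and 294, 208, 199 and 324 in the same order (-1.0 ± 0.24, adjusted p = 0.0637), without overlap but short of the threshold. spry2.S, a Sprouty feedback inhibitor gene, gave 0.97 ± 0.28 (adjusted p = 0.139).

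Among Wnt ligands, receptors and antagonists 4 genes of 58 rose and none fell, with a median of 0.15, and the 4 were receptors or polarity genes. Among all probe sets 0.426% were higher. ror2.L, a receptor tyrosine kinase gene for non-canonical Wnt ligands, had 183, 233, 88 and 228 in foxD5-noggin caps and 45.4, 9.15, 28 and 37.9 in untreated caps (2.17 ± 0.36, adjusted p = 0.0069, limma) and passed in all 8 leave-one-out fits. The planar polarity gene vangl2.S had 668, 851, 1135 and 790 in foxD5-noggin caps and 347, 488, 396 and 421 in untreated caps (0.97 ± 0.19, adjusted p = 0.0228). The Frizzled receptor genes fzd7.L and fzd2.S averaged 736 ± 109 and 432 ± 64.6 in foxD5-noggin caps, and 367 ± 78.2 and 224 ± 35.6 in untreated caps. Their log2 changes were 0.94 ± 0.20 and 0.90 ± 0.19 (adjusted p = 0.0405 and 0.0397, limma). All 4 lay above every control. Leave-one-out fits kept vangl2.S in 3 of 8, fzd2.S in 1 and fzd7.L in none (adjusted p up to 0.121), and the 4 other probe sets of fzd7.L gave -0.05 to 0.25. wnt11b.L, a non-canonical ligand gene of gastrulation movements, gave 1.3 ± 0.34 (adjusted p = 0.0953) and the polarity gene prickle1.L 1.17 ± 0.32 (adjusted p = 0.117), neither past the threshold. dact1.L, a Dishevelled-binding regulator gene, gave -0.75 ± 0.25 (adjusted p = 0.232).

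Among the further rises, nradd.L, which encodes a membrane protein with a death domain related to the p75 neurotrophin receptor, had 365, 370, 433 and 496 in foxD5-noggin caps and 59, 99.2, 83.7 and 63.6 in untreated caps (2.28 ± 0.25, adjusted p = 0.000543, limma). sesn1.L, a sestrin gene of the stress response and a target of p53, had 627, 571, 621 and 793 in foxD5-noggin caps and 123, 196, 163 and 184 in untreated caps (1.87 ± 0.22, adjusted p = 0.000543). These were the smallest adjusted p-values of the comparison, and within each group the arrays differed by less than 2-fold. A dimmer probe set of sesn1.L gave 0.83 and did not pass (adjusted p = 0.139, limma). epha2.L, an Eph receptor gene, had 575, 554, 399 and 467 in foxD5-noggin caps and 135, 166, 209 and 179 in untreated caps (1.47 ± 0.20, adjusted p = 0.00123, limma). pou2f1.S, a POU-domain factor gene, had 666, 539, 277 and 305 in foxD5-noggin caps and 106, 114, 89.6 and 143 in untreated caps (1.80 ± 0.27, adjusted p = 0.00278). All of these 4 genes passed in all 8 leave-one-out fits.

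slc2a1.L, the gene of a main glucose transporter, had 76.5, 73.1, 90.1 and 127 in foxD5-noggin caps and 38, 13.1, 16.8 and 17.8 in untreated caps (1.61 ± 0.25, adjusted p = 0.00458, limma), and passed in all 8 leave-one-out fits. A second probe set of it gave 0.70 (adjusted p = 0.333). Both copies of slc43a2, a transporter of large neutral amino acids, rose: slc43a2.L had 104, 177, 389 and 330 in foxD5-noggin caps and 86.5, 52.3, 55.8 and 43 in untreated caps (1.79 ± 0.33, adjusted p = 0.0147, limma), and slc43a2.S 20.9, 25.2, 37.4 and 54.2 and 2.76, 6.9, 13 and 3.73 in the same order (1.25 ± 0.26, adjusted p = 0.0321). pfkfb3.S, which encodes an enzyme that speeds glycolysis, averaged 213 ± 89.2 in foxD5-noggin caps and 65.4 ± 34.7 in untreated caps (1.58 ± 0.31, adjusted p = 0.0204), and a second probe set of it, averaging 167 ± 62.5 in foxD5-noggin caps and 104 ± 40.3 in untreated caps, gave 0.67 (adjusted p = 0.438). dhcr7.S, of the last step of cholesterol synthesis, gave 1.53 ± 0.31, and alpl.L, an alkaline phosphatase gene, 1.57 ± 0.35, with adjusted p-values of 0.0279 and 0.0442 (limma). mknk2.S, a kinase gene acting on the cap-binding protein of translation, gave 1.60 ± 0.34 (adjusted p = 0.0353), with another probe set at -0.06. Of 8 leave-one-out fits, slc43a2.L passed in 5, pfkfb3.S in 4, dhcr7.S in 3, alpl.L and mknk2.S in 2 and slc43a2.S in 1, with adjusted p-values of up to 0.135.

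The list of glycolysis, hypoxia and stress genes gave 2 rises in 57, sesn1.L and plk2.S, and a median of 0.04, beside 0.426% of all probe sets that rose. A list takes each gene at its brightest probe set over all arrays, so that slc2a1.L and pfkfb3.S, which passed at another probe set, are not in that count; over all probe sets of the list 4 passed. plk2.S, a stress-induced Polo-like kinase gene, averaged 128 ± 47.9 in foxD5-noggin caps and 45.7 ± 14.5 in untreated caps (1.32 ± 0.26, adjusted p = 0.0228, limma), and passed in 3 of 8 leave-one-out fits. Just short of the threshold were hif1a.L, the hypoxia factor gene (0.68 ± 0.16, adjusted p = 0.0615), ambp.L (1.61 ± 0.37, adjusted p = 0.0569) and egln3.L, an oxygen sensor gene (1.1 ± 0.28, adjusted p = 0.0912). The other probe sets of ambp.L, all dimmer, gave -0.15, -0.01, 0.12 and 0.24. Of 67 cell cycle genes only ccnd1.L, the cyclin D1 gene, passed, with 703, 1089, 757 and 1275 in foxD5-noggin caps and 428, 321, 299 and 460 in untreated caps (1.25 ± 0.24, adjusted p = 0.0189, limma); it passed in 4 of 8 leave-one-out fits. The mitotic cyclin genes ccnb2.L (-0.64 ± 0.21) and ccnb1.2.L (-0.56 ± 0.19) did not overlap in the lower direction and did not pass (adjusted p = 0.214 and 0.221). In the higher direction, wee1.S (0.64 ± 0.23) and cdc25c.L (0.59 ± 0.19) did not overlap and did not pass (limma adjusted p = 0.262 and 0.2). Of the 67 genes, 4 did not overlap in the higher direction and 2 in the lower, beside 3.63% and 3.03% of all probe sets. cdca7.L, a cell division cycle associated gene, gave 1.50 ± 0.28 (adjusted p = 0.018, passing in 5 of 8 fits), and a dimmer probe set of it 0.31 (adjusted p = 0.621, limma).

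cnn3.L, a calponin gene of actin filaments, had 475, 621, 396 and 352 in foxD5-noggin caps and 174, 174, 169 and 190 in untreated caps (1.27 ± 0.17, adjusted p = 0.00123, limma) and passed in all 8 leave-one-out fits. A dimmer probe set of the gene, averaging 20.2 and 27.9 in the same order, gave -0.13 (adjusted p = 0.856, limma). cdc42.L, a small GTPase gene of cell polarity, gave 0.84 ± 0.18 (adjusted p = 0.0362), but its other 5 probe sets, all brighter, gave -0.14 to 0.30. pard6g.S, a polarity complex gene, gave 0.89 ± 0.19 (adjusted p = 0.0417) and passed in none of the 8 fits, its other probe set giving 0.79 (adjusted p = 0.0881). mmp14.L, a membrane-anchored matrix protease gene, had 312, 511, 91.6 and 356 in foxD5-noggin caps and 24.9, 65.1, 32.8 and 134 in untreated caps (2.13 ± 0.46, adjusted p = 0.0397). foxD5-noggin 3 lay below control 4, and the call held in 2 of the 8 fits. hes7.1.L, a repressor gene of the hairy family, had 48, 84.7, 42.2 and 61.1 in foxD5-noggin caps and 24.8, 16.1, 12.6 and 12.1 in untreated caps (1.27 ± 0.24, adjusted p = 0.0175), and its brighter probe set gave 1.31 ± 0.55 (adjusted p = 0.368). The call held in 4 of the 8 fits (limma adjusted p up to 0.0583). rbms1.S, an RNA-binding protein gene, gave 1.36 ± 0.25 and passed in all 8 fits. The remaining genes past the threshold gave 1.44 ± 0.27 for ccnl2.L, 1.43 ± 0.26 for rab40b.L, 1.3 ± 0.26 for cpne3.L, 1.17 ± 0.23 for ctps2.L and 1.13 ± 0.25 for irf1.S. They gave 1.12 ± 0.21 for zfand5.L, 1.1 ± 0.24 for phyhdlb.L, 1.05 ± 0.22 for ywhae.S, 1.04 ± 0.22 for wdr83os.S, 1.02 ± 0.23 for tmbim6.L, 0.80 ± 0.16 for prkar1a.L and 1.23 ± 0.20 for XB5748694.L. Their adjusted p-values lay between 0.00517 and 0.0442 (limma). Of these 12 genes XB5748694.L passed in all 8 leave-one-out fits, zfand5.L and rab40b.L in 7, ccnl2.L in 5, ctps2.L in 4, cpne3.L in 3, ywhae.S, wdr83os.S and prkar1a.L in 2 and irf1.S, phyhdlb.L and tmbim6.L in 1, with adjusted p-values of up to 0.139. The other 9 probe sets of ctps2.L gave -0.21 to 0.50 and the other 2 of ywhae.S, both brighter, 0.28 and 0.39, none past the threshold. Those of ccnl2.L (1.22), cpne3.L (0.89) and prkar1a.L (0.43 and 0.71) did not pass, while a second one of rab40b.L did, with 1.21. Of the 22 probe sets without a gene name that rose, the largest rise was in one with 183, 72.7, 130 and 207 in foxD5-noggin caps and 3.36, 50.1, 14.8 and 4.29 in untreated caps (2.48 ± 0.35, adjusted p = 0.0022, limma), and the next changed by 1.74 ± 0.24.

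**Figure D3:**
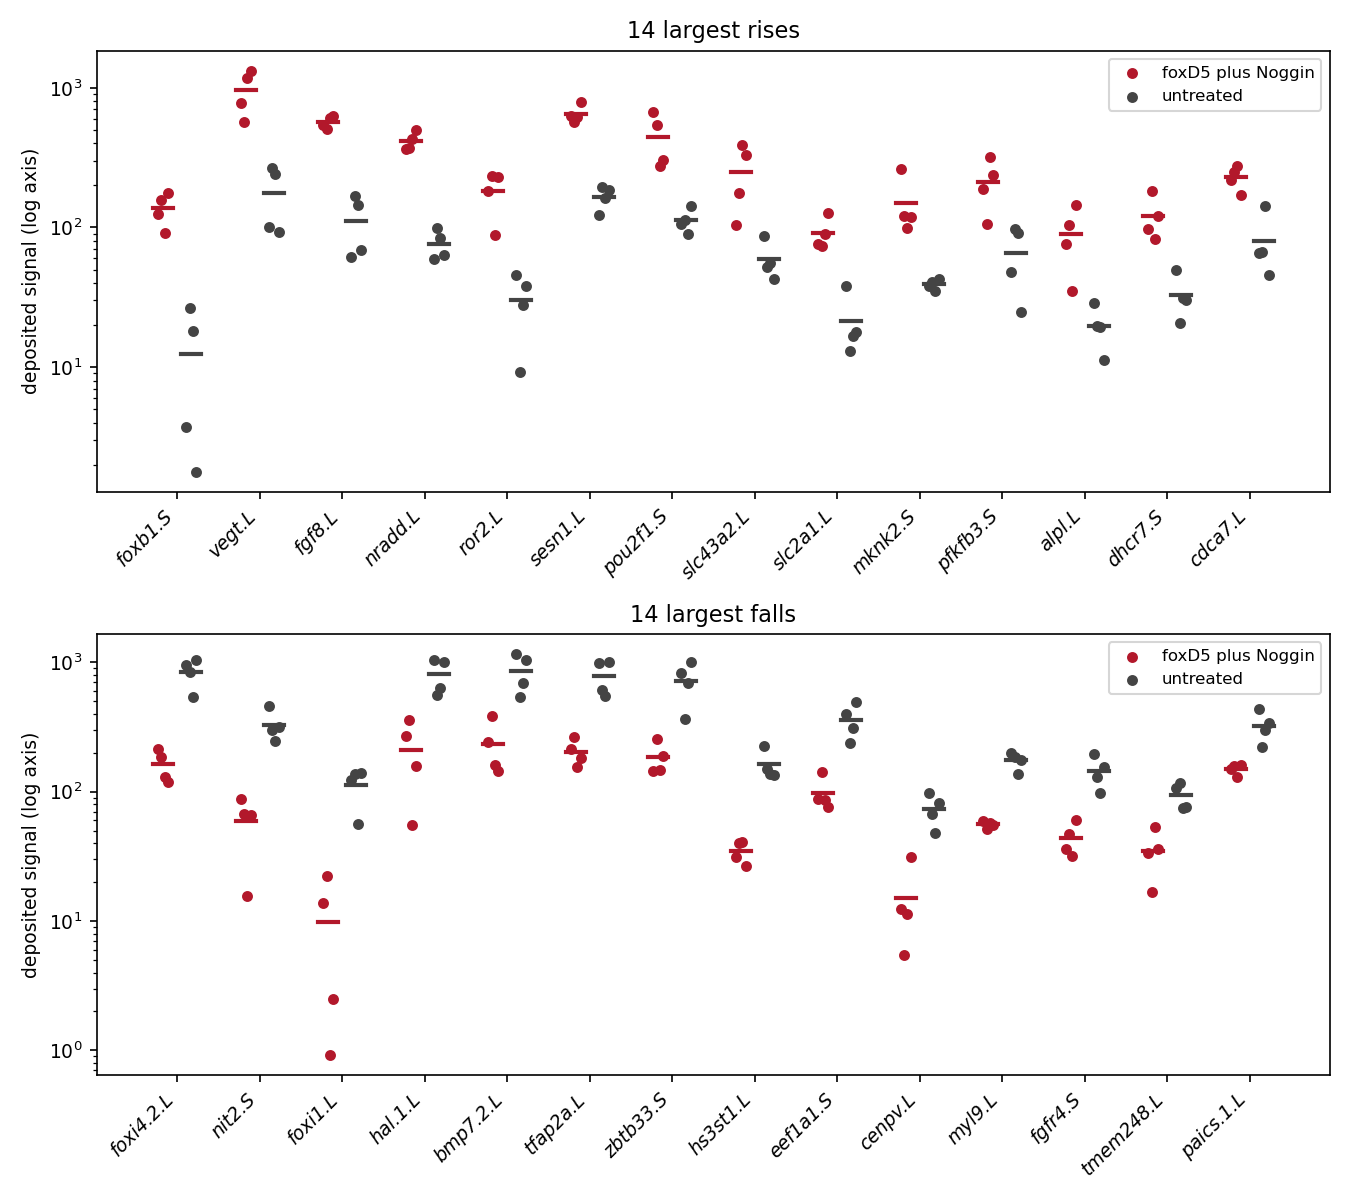
Deposited signal on a log axis (y axis) on each of the 4 foxD5-noggin arrays (red) and 4 untreated arrays (grey), with bars at the means, for the 14 largest rises (top) and the 14 largest falls (bottom) by gene (x axis). In every gene shown the groups do not overlap on the normalised scale, and foxb1.S and foxi1.L include signals under 5.

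Most neural genes did not pass. The 62 neural plate transcription factor genes, the 15 posterior neural and Hox genes, the 33 border, crest and placode genes and the 45 neuronal differentiation genes gave no call beyond foxb1.S, with medians of 0.03, 0.09, 0.04 and -0.03 in that order. Among all probe sets 0.426% were higher and 0.168% lower. Of the 62 neural plate genes, 33 averaged under 16 in foxD5-noggin caps and 34 in untreated caps, where log2 changes are compressed. In the posterior list, cdx1.S gave 1.16 ± 0.43 (adjusted p = 0.29). Among early neural genes, picked after their values were seen, sox2.L of neural progenitors averaged 109 ± 22.1 in foxD5-noggin caps and 80.7 ± 11.8 in untreated caps (0.45 ± 0.30, adjusted p = 0.617, limma), and its dimmer probe set gave 1.03 (adjusted p = 0.241). sox3.S, a related gene, averaged 1305 ± 158 in foxD5-noggin caps and 925 ± 247 in untreated caps (0.47 ± 0.26, adjusted p = 0.533). sox11.S, with -0.11 ± 0.25, and zic1.S, a zinc-finger gene of the neural plate, with -0.16 ± 0.37, differed by less than their error. Copies of geminin, a gene that keeps neural cells undifferentiated, pointed opposite ways without passing: gmnn.L gave 0.53 ± 0.35 and gmnn.S -0.52 ± 0.35. otx2.L, of the anterior neural plate, had 114, 181, 155 and 180 in foxD5-noggin caps and 245, 238, 222 and 229 in untreated caps (-0.53 ± 0.21, adjusted p = 0.334), and sall1.L, a zinc-finger gene, 35.9, 67.2, 59.7 and 87.4 and 96.7, 119, 147 and 128 in the same order (-0.75 ± 0.23, adjusted p = 0.179). Both were lower on all 4 foxD5-noggin arrays. On the normalised scale the brighter probe set of sox2.L did not overlap either, being higher in foxD5-noggin caps. Of the 62 neural plate genes, 2 did not overlap in the lower direction and 2 in the higher. Among all probe sets these shares were 3.03% and 3.63%. With positive values, zic5.S gave 0.85 ± 0.26, znf703.S 0.74 ± 0.25 and pou3f4.L 0.61 ± 0.25. None of these passed (adjusted p = 0.179, 0.232 and 0.342, limma), and their groups overlapped. At an unadjusted p under 0.05, 6 of the 62 neural plate genes were higher, foxb1.S included, and 3 lower. Among all 15491 probe sets, 972 were higher and 796 lower at that level.

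In the list of neuronal differentiation genes, 26 of 45 averaged under 16 in foxD5-noggin caps and 26 in untreated caps. elavl3.L, of early neurons, averaged 33.6 ± 16.1 in foxD5-noggin caps and 16.1 ± 6.87 in untreated caps (0.69 ± 0.26, adjusted p = 0.304, limma), tubb2b.S, a neural tubulin gene, 209 ± 72.1 and 128 ± 25.7 in the same order (0.66 ± 0.29), and ncam1.L, a neural adhesion gene, 67.4 ± 65.8 and 27.3 ± 10.7 (0.68 ± 0.48). neurod1.L, of neuronal differentiation, had 1.19, 1.08, 1.07 and 1.14 in foxD5-noggin caps and 3.21, 27.8, 17.3 and 8.97 in untreated caps (-0.63 ± 0.24, adjusted p = 0.312). In the same list sncb.L gave -0.64 ± 0.30, neurog2.L -0.43 ± 0.21 and stmn1.L -0.38 ± 0.21, none past the threshold. Of its 45 values 20 were positive and 25 negative. The Notch pathway gave no call in 27 genes, each taken at its brightest probe set, with 17 positive values and a median of 0.24. Its largest values were those of hes7.1.L, hes2.L (0.92 ± 0.36), jag1.L, a ligand gene (0.89 ± 0.28), and hes1.L (0.86 ± 0.35), none past the threshold at that probe set.

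Markers of other germ layers were examined because caps can hold mesoderm or endoderm. In the mesoderm and muscle list 3 of 66 genes rose, beside 0.426% of all probe sets, none fell and the median was 0.06. The 3 were foxb1.S, vegt.L and fgf8.L, which other lists share with this list. Its summed signal was 2139 to 3432 in foxD5-noggin caps and 1064 to 2132 in untreated caps. That sum includes the same 3 genes, so it is not a separate observation. vegt.L averaged 963 in foxD5-noggin caps and 176 in untreated caps, fgf8.L 571 and 111, and foxb1.S 137 and 12.5. In this list 49 of the 66 averaged under 16 in foxD5-noggin caps and 50 in untreated caps. The endoderm list gave 2 rises in 39 genes, vegt.L and foxa4.L, a median of -0.03 and a summed signal of 1455 to 2436 in foxD5-noggin caps and 957 to 1490 in untreated caps. The endoderm sum includes vegt.L as well. sox17b.1.S, a defining endoderm gene, averaged 23.5 ± 21.9 in foxD5-noggin caps and 71.8 ± 35.9 in untreated caps (-1.13 ± 0.37, adjusted p = 0.216, limma). foxa4.L, a forkhead gene of the organizer and midline, was the 1 call in 30 organizer genes: it had 15.4, 13.8, 12.7 and 22.8 in foxD5-noggin caps and 1.28, 5.31, 2.43 and 0.696 in untreated caps (0.92 ± 0.17, adjusted p = 0.0147), all at the dim end of the scale, and passed in 6 of 8 leave-one-out fits. Blood, vessel and immune genes gave no call in 26 (summed signal 456 to 702 in foxD5-noggin caps and 525 to 1179 in untreated caps), with gata1.L, a defining blood gene, at 1.38 ± 1.42 in foxD5-noggin caps and 9.22 ± 8 in untreated caps. The cement and hatching gland list gave none in 9, and the cytosolic ribosomal protein list none in 69 (median -0.08). The part of other cell types in the changes above was not tested.

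**Figure D4:**
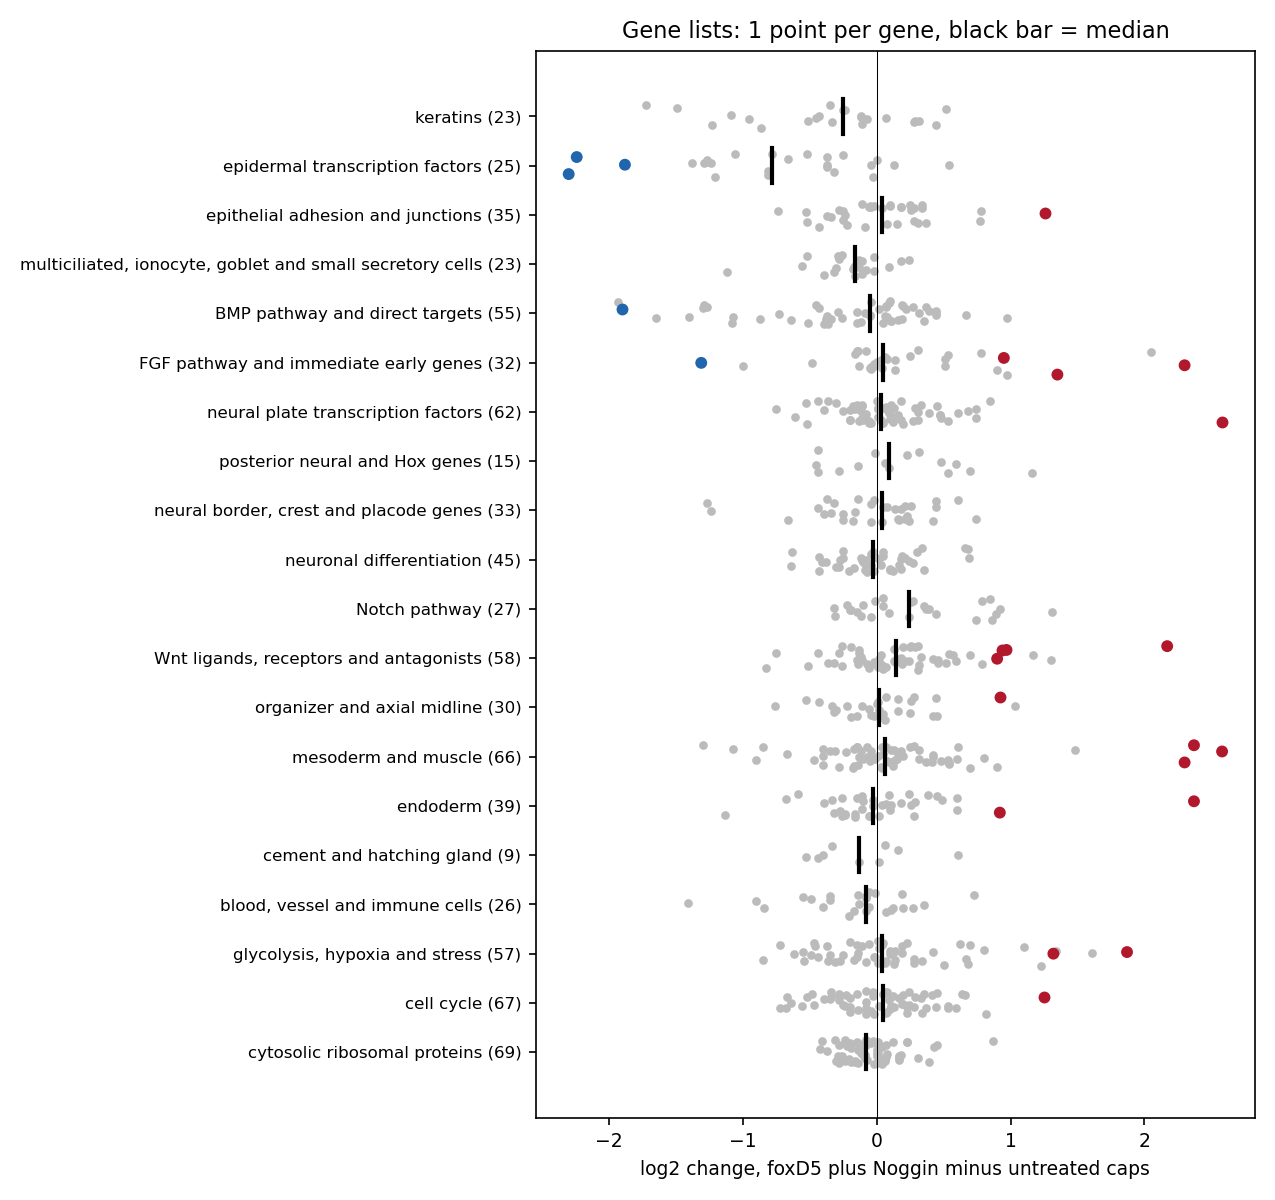
Log2 change in foxD5-noggin caps against untreated caps (x axis) for each gene of 20 lists (y axis, number of genes measured in brackets), with a black bar at the median. Genes past the threshold are red where higher and blue where lower; the epidermal transcription factors have the lowest median, -0.78. The lists were chosen with earlier results of these data known.

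The injected gene itself was not higher at the threshold. The probe set of foxd4l1.1.S had signals of 101, 79.9, 16.1 and 169 in foxD5-noggin caps and 35, 70.6, 57 and 20.9 in untreated caps (0.74 ± 0.56, adjusted p = 0.672, limma). foxD5-noggin 4 was the brightest of the 8 and foxD5-noggin 3 the dimmest. foxd4l1.2.L had 2.04, 0.776, 1.02 and 15.4 in foxD5-noggin caps and 9.5, 10.1, 8.59 and 0.674 in untreated caps (-0.11 ± 0.22). Whether the injected transcript reached into the region of these probe sets is not stated in the labels, so they check nothing about the dose. Noggin was added as protein, and nog.L averaged 7.5 ± 6.68 in foxD5-noggin caps and 7.05 ± 4.81 in untreated caps (0.16 ± 0.22, adjusted p = 0.847).

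A homeolog with a probe set of its own was measured for 18 of the 59 gene symbols past the threshold, which form 17 pairs because both slc43a2 copies passed. At the brightest probe set of each copy the signs matched in 12 of the 17 pairs (70.6%), beside 606 of all 1017 measured pairs (59.6%), and plk2.L at 0.02 and tmem248.S at -0.02 count among the matches. Besides the slc43a2 pair no homeolog passed. foxi4.2.S averaged 298 in foxD5-noggin caps and 669 in untreated caps (-1.27 ± 0.41, adjusted p = 0.202, limma), and ccnd1.S averaged 246 and 131 in the same order (0.82 ± 0.30, adjusted p = 0.277). myl9.S gave 0.13 ± 0.26 and paics.1.S 0.04 ± 0.36, opposite in sign to the copy that fell.

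Finally, the single treatments were set beside the joint one; all 3 were measured against the same 4 untreated arrays, so their values are not independent of each other. In the same fit, of 15491 probe sets, 92 passed with both treatments, 49 with foxD5 alone and 1, cnn3.L, with Noggin alone. Added to caps already in Noggin, foxD5 moved 63, and Noggin added to foxD5 caps moved 20. These counts do not rank the treatments by size. foxD5 was compared between siblings and Noggin was not, so the SE was smaller for foxD5 alone, as for foxi4.2.L below. Over all probe sets the root mean square difference of means was 0.299 for Noggin alone and 0.276 for foxD5 alone. These values include the spread between arrays, which is larger between caps that are not siblings, so they do not rank the treatments either. foxi4.2.L changed by -2.30 ± 0.28 with both treatments, -1.32 ± 0.22 with foxD5 alone and -1.15 ± 0.28 with Noggin alone (log2 ± SE, n = 4 arrays a group). fgf8.L changed by 2.30 ± 0.33 with both, 1.99 ± 0.27 with foxD5 alone and 0.59 ± 0.33 with Noggin alone. foxb1.S gave 2.58 ± 0.38 with both, 1.99 ± 0.30 with foxD5 alone and 0.85 ± 0.38 with Noggin alone. In both of these genes the value for foxD5 alone was nearer to the joint value, as it was for bmp7.2.L, with -1.90 ± 0.33 for both, -1.70 ± 0.26 for foxD5 alone and -0.54 ± 0.33 for Noggin alone. ror2.L gave 2.17 ± 0.36 with both and close values with either treatment, 0.95 ± 0.28 with foxD5 alone and 1.04 ± 0.36 with Noggin alone. cdca7.L gave 1.50 ± 0.28 with both, -0.01 ± 0.23 with foxD5 alone and 1.3 ± 0.28 with Noggin alone. zbtb33.S gave -1.82 ± 0.35 with both, -0.23 ± 0.28 with foxD5 alone and -1.89 ± 0.35 with Noggin alone. In that pair it was the Noggin value that lay nearer. The caps in Noggin alone were likewise not siblings of the untreated caps, so Noggin and clutch cannot be told apart in these values. The same holds for the 20 probe sets moved by Noggin added to foxD5 caps.

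Whether the effects added up was tested as the interaction of foxD5 and Noggin. No probe set passed (smallest adjusted p = 0.424, limma; 804 had an unadjusted p under 0.05, 366 of them positive), which is 0% of those tested. Without control 1, 1 probe set passed. Among the 92 probe sets of the joint comparison, 6 had an unadjusted p under 0.05, and the median SE of the interaction was 0.28 log2 units. Over all probe sets even interactions of 1.34 ± 0.29 and 1.1 ± 0.23 did not pass. Departures well above 0.28 could therefore go undetected with 4 arrays a group. The smallest p-values among positive interactions were those of ptgds-b (1.34 ± 0.29), baz2b.S (1.1 ± 0.23) and inhbb.L (0.95 ± 0.22). Among negative ones they were those of tal1.S (-1.06 ± 0.22), nprl2.S (-1.0 ± 0.24) and fam174a.S (-0.88 ± 0.21), and none of these 6 genes passed in the joint comparison.

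**Figure D5:**
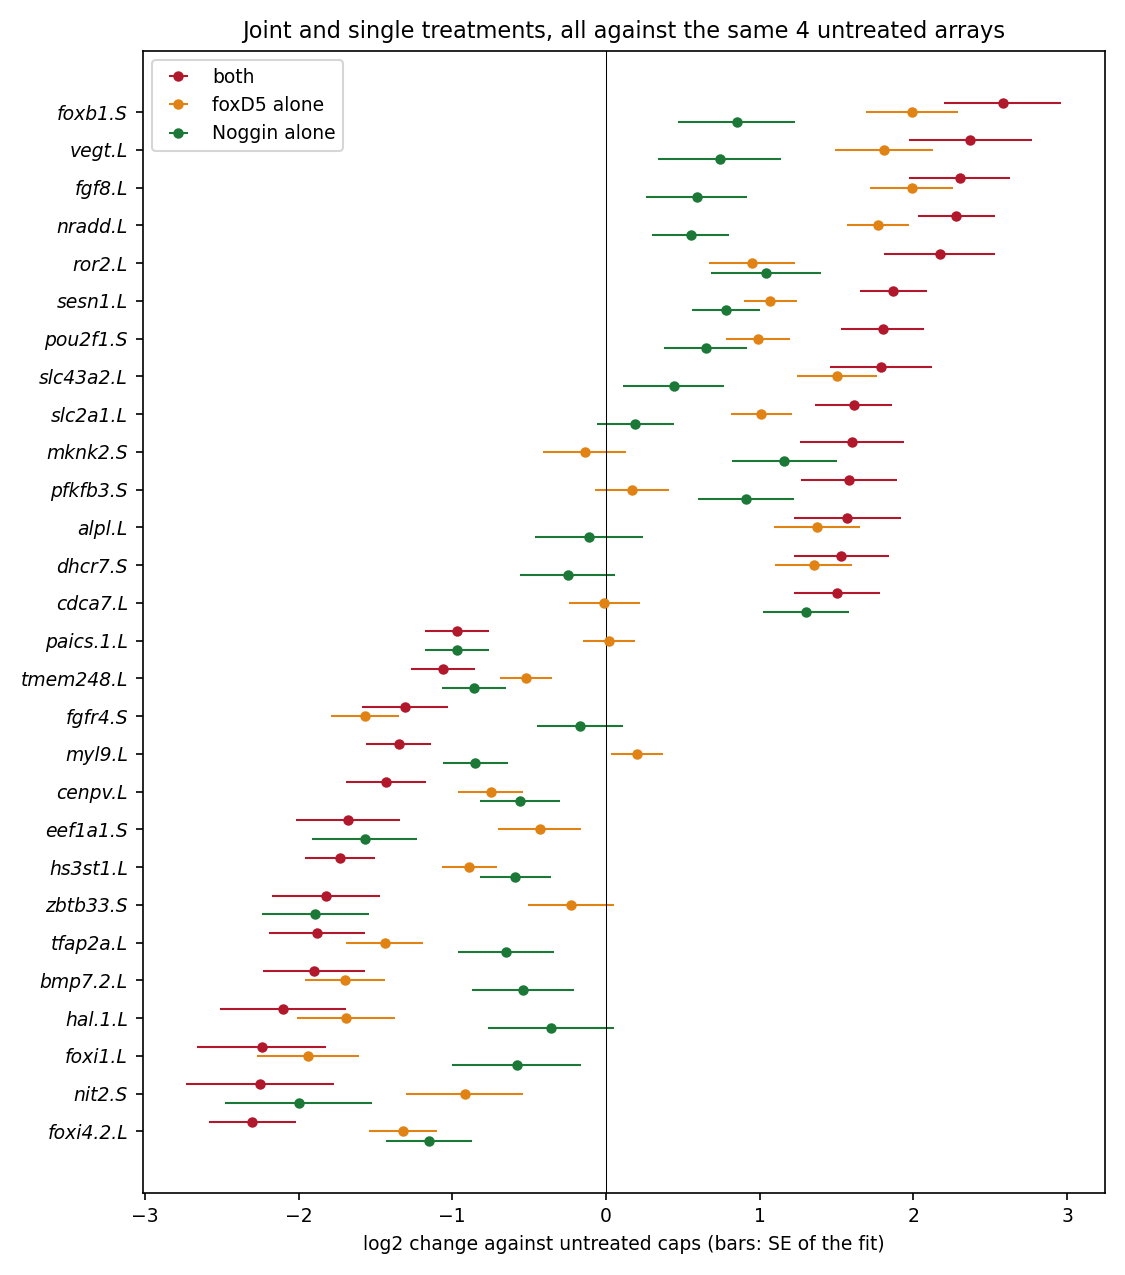
Log2 change against the same 4 untreated arrays (x axis, bars: SE of the fit) for the 14 largest rises and 14 largest falls (y axis), with both treatments in red, foxD5 alone in orange and Noggin alone in green. The joint change of foxb1.S is 2.58, beside 1.99 with foxD5 alone and 0.85 with Noggin alone.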

How the data were processed

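RNA from pools of Xenopus laevis animal caps was measured on 16 Affymetrix arrays, 4 in each of 4 groups. The deposited values are intensities on a linear scale, 1 per probe set; the software behind them is not given in the sources used here. From the values, the authors scaled each array to a common mean of 150.02 after trimming 2% at each end, and array medians of the log2 signal ran from 5.79 to 6.35. The number of arrays limits the precision. All 120 AFFX control probe sets were left out of 15611. Symbols came from the platform annotation, updated through RefSeq gene identifiers: 9304 probe sets had 1 symbol, 195 several, which were counted under no gene, and 5992 none.

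Here 16 was added to each intensity, log2 taken and arrays quantile normalised. Group means on all 16 arrays were fitted with limma 3.58.1 (R 4.3.3, statmod 1.5.0), with the sibling pair as a random block (correlation 0.364), empirical Bayes moderation and Benjamini-Hochberg adjustment over 15491 probe sets, threshold 0.05. Fold changes refer to log2(signal + 16) and understate the change of dim genes; signals in the text are as deposited, with their SD over 4 arrays. On simulated data with 200 changed probe sets the test recovered 58.0% of log2 changes of 1 and 98.3% of changes of 2. The simulated noise was normal, with the fitted variances and a common sibling correlation, so recovery on the real arrays may be lower. Genes were named by rule: the 14 that rose most and the 14 that fell most among probe sets with 1 symbol that passed without overlap, up to 6 genes of smallest p per list, foxd4l1, noggin, the 3 most extreme interactions each way and the 2 largest rises and falls without a symbol; other genes named were chosen after their values were seen. A list takes each gene at its brightest probe set. The genes examined and the lists were chosen with earlier results of these data known, and the kinase genes that shared a prefix with the ribosomal protein list were dropped after the matches were seen. The labels give no sibling link between foxD5-noggin and control samples of the same replicate number. Correlations of deviations by number were 0.095, -0.248, 0.348 and -0.073, too few and too mixed to settle whether a culture was shared. Array weights, an intensity trend, other pseudocounts, median centring, deposited values, a filter, other blocks and each array left out were tried. Probe positions and sequences were not used here.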

Additional observations from a re-analysis of the deposited data

Results flagged for a closer look

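In 3 of the 62 groups of 4 arrays examined, 1 array stood apart from the other 3 by Dixon's test on the normalised log2 scale, where chance alone gives about 1 in 20. In deposited values, foxd4l1.2.L had a signal of 15.4 in foxD5-noggin 4, against 2.04 or less on the other foxD5-noggin arrays. hs3st1.L had 227 in control 1, against 135 to 150 in the other controls. foxi4.2.L had 541 in control 3, against 842 or more in the other controls, and its fall was past the threshold with or without that array (adjusted p of at most 0.00447 when any 1 array was left out).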

How the results depend on the processing

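The number of probe sets past the threshold, 92 (66 higher, 26 lower), was 168 (113 higher, 55 lower) with array weights, 143 (98 higher, 45 lower) with a pseudocount of 64, 54 (33 higher, 21 lower) on deposited values, 36 (22 higher, 14 lower) with the 8 arrays alone and 20 (12 higher, 8 lower) with a pseudocount of 1. With the replicate number as a block on the 8 arrays it was 8 (4 higher, 4 lower); in the pairing check 2 of 4 samples correlated best with their own number. Leaving out 1 array gave 33 to 80 (24 to 63 higher, 9 to 25 lower). Leaving out controls 1 and 2 together, chosen after seeing the data, gave 21 (17 higher, 4 lower). An intensity trend (122), median centring (103), no sibling block (99) and a filter at the median (105) stayed within 1.5 times. Of the 92, 28 passed in all 8 leave-one-out fits and 6 in none. All measured kept their sign under every setting, which says little for probe sets picked for large changes in the same arrays. The interaction gave 0 in every setting but leaving out control 1, where it gave 1 (range 0 to 1). The cause of these differences was not tested, beyond the fewer arrays in some fits. Sign changes touched only genes not past the threshold. With array weights tspan1.S gave 0.07; median centring gave 0.03 for tspan1.S and 0.08 for sox11.S; deposited values gave -0.01 for inhbb.L and -0.06 for tal1.S. Leaving out controls 1 and 2 gave -0.17 for sox3.L, 0.06 for tspan1.S, 0.02 for agr2.S and 0.11 for ag1.S. Over all fits that left out 1 array the log2 change ran between -0.87 and 0.24 for agr2.S, -0.86 and 0.20 for ag1.S, -0.44 and 0.03 for zic2.L, -0.34 and 0.09 for tspan1.S, -0.28 and 0.07 for sox11.S, -0.08 and 0.23 for sox15.L, -0.07 and 0.09 for fam174a.S, -0.05 and 0.29 for nog.L, -0.02 and 0.37 for sox3.L and -0.01 and 0.15 for tal1.S. Mean signals were under 16 in both groups for 23.4% of probe sets, where log2 changes are compressed.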
